A study of Rattus norvegicus with 12 samples.

Results

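Cyclic AMP signalling runs from the adenylyl cyclases, which make cyclic AMP, through the phosphodiesterases, which degrade it, to protein kinase A, the Epac exchange factors and the CREB family of transcription factors. Its genes were taken from the table by name: the cyclases (Adcy), phosphodiesterases (Pde), catalytic and regulatory subunits of protein kinase A (Prkac, Prkar), the Epac genes Rapgef3 and Rapgef4, the CREB genes with Crem, the CRTC coactivators and the A-kinase anchoring proteins (Akap). Of 28727 named genes, 71 had such a name, and 60 of these had at least 10 raw counts in at least 3 of the 12 libraries. The 60 comprised 6 cyclases, 20 phosphodiesterases, 6 protein kinase A subunits, 2 Epac genes, 7 transcription factors, 3 coactivators and 16 anchoring proteins. All but Creb3l3, which had 0 to 14 counts in a library, passed the filter on low counts, so 59 were tested. The 11 that did not reach the minimum were Adcy2, Adcy4, Adcy7, Adcy10, Pde6a, Pde6b, Pde6c, Pde6g, Pde6h, Creb5 and Akap4.

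In pancreatic β-cells, cyclic AMP amplifies the insulin secretion that glucose and calcium set off. Incretin hormones such as GLP-1 and GIP raise it through receptors coupled to the stimulatory G protein, the cyclases differ in whether calcium activates or inhibits them, and phosphodiesterases of several families limit how far and how long the signal spreads. Protein kinase A is held inactive by its regulatory subunits until cyclic AMP binds them, and anchoring proteins place it near its substrates, while CREB with its CRTC coactivators carries the signal to genes.

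RNA was sequenced from INS-1 832/13, a clonal line of rat insulinoma cells that still release insulin when glucose rises. A control adenovirus carried GFP, and the other carried mouse ChREBPβ with an mCherry tag. ChREBPβ is the shorter form of ChREBP, the transcription factor encoded by Mlxipl that activates genes when glucose is high. Cells with either virus were kept in medium with 2 or 11 mM glucose over 48 h. Each of the 4 groups had 3 libraries (a, b and c), which makes 12. The GFP control carries no mCherry-tagged protein, all 4 groups carry an adenovirus, and all cells come from 1 line.

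Library totals ranged from 25754488 to 60531215 counts, of which the 60 genes took 0.326% to 0.362%. Depth differed between the viruses. GFP libraries had at most 46654823 counts. All ChREBPβ libraries had at least 57088794, except replicate a at 2 mM with 28595982. RNA was amplified before sequencing, so a count is not an independent molecule. Values are CPM (counts scaled to a common library size) after TMM scaling, so changes are relative to those of most genes. RNA came from whole cultures, so fewer cells expressing a gene and less of its RNA per cell cannot be told apart. Endogenous rat Mlxipl did not rise in the libraries labelled ChREBPβ (log2 fold change -0.33 at 2 mM, adjusted p = 2.03e-05 in edgeR), whereas the ChREBP targets Txnip and Pklr did (log2 fold changes 4.12 and 1.69). The table also has an entry named ChREBPb, and what sequence it counts is not stated in the sources used here. ChREBPb was higher in every ChREBPβ library than in the GFP libraries at the same glucose concentration, with a log2 fold change of 0.21 at 2 mM (adjusted p = 0.00841 in edgeR), under the 1.2-fold minimum used here, and of 0.37 at 11 mM (adjusted p = 6.9e-05), which passed it. Whether either entry, Mlxipl or ChREBPb, counts the viral transcript is not stated, and groups follow the labels. Of 8 β-cell markers, 6 fell and Slc2a2 rose with ChREBPβ at both glucose concentrations, and G6pc2 had at most 2 counts in a library. Their summed level was 14360 to 16240 CPM with GFP at 2 mM, 10910 to 11970 with GFP at 11 mM, 5966 to 6125 with ChREBPβ at 2 mM and 5058 to 5446 with ChREBPβ at 11 mM. The β-cell markers thus moved in the same comparisons as the cyclic AMP genes, and their part in the results below was not tested. Markers of cells that a clonal line should not hold summed to between 4.01 and 9.14 CPM, with Ptprc and Prss1 at 0 counts in every library. The hormone genes of other islet cells (Gcg, Sst, Ppy and Ghrl) summed to between 1591 and 1721 CPM with GFP and between 431 and 502.9 with ChREBPβ, nearly all of it from Gcg.

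With ChREBPβ at 2 mM glucose, 37 of the 59 tested genes (62.7%) changed by at least 1.2-fold with an edgeR adjusted p under 0.05, 17 higher and 20 lower. Among all 14669 tested genes the shares were 44.1% changed, 21.0% higher and 23.2% lower. The median log2 fold change was -0.06 over the 59 genes and -0.017 over all tested genes. TMM scaling centres most genes near 0, so these medians cannot show whether rises and falls were balanced. The TMM factors were 1.01 to 1.06 with GFP and 0.958 to 0.977 with ChREBPβ. Scaling by library totals instead of TMM gave 11 higher and 23 lower. At 11 mM glucose, ChREBPβ changed 23 of the 59 (39%), 7 higher and 16 lower, against a background of 33.4% changed, 14.3% higher and 19.1% lower. The median log2 fold change at 11 mM was -0.043, against -0.017 for all tested genes.

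Glucose alone, 11 against 2 mM with GFP, changed 17 of the 59 genes (28.8%), 8 higher and 9 lower, where 20.2% of all tested genes changed, 10.2% higher and 10.0% lower. With ChREBPβ the same step in glucose changed 3 of 59 (5.08%), Pde4b higher and Pde4c and Akap12 lower, with a background of 3.87% changed, 0.988% higher and 2.88% lower. The difference between the ChREBPβ effects at the 2 glucose concentrations, tested as an interaction, passed for 6 of 59 (10.2%), 2 with a value above 0 and 4 below, against 6.31% of all tested genes (1.56% above and 4.74% below 0). The GFP libraries at 2 mM serve both the ChREBPβ comparison at 2 mM and the glucose comparison with GFP.

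**Figure D1:**
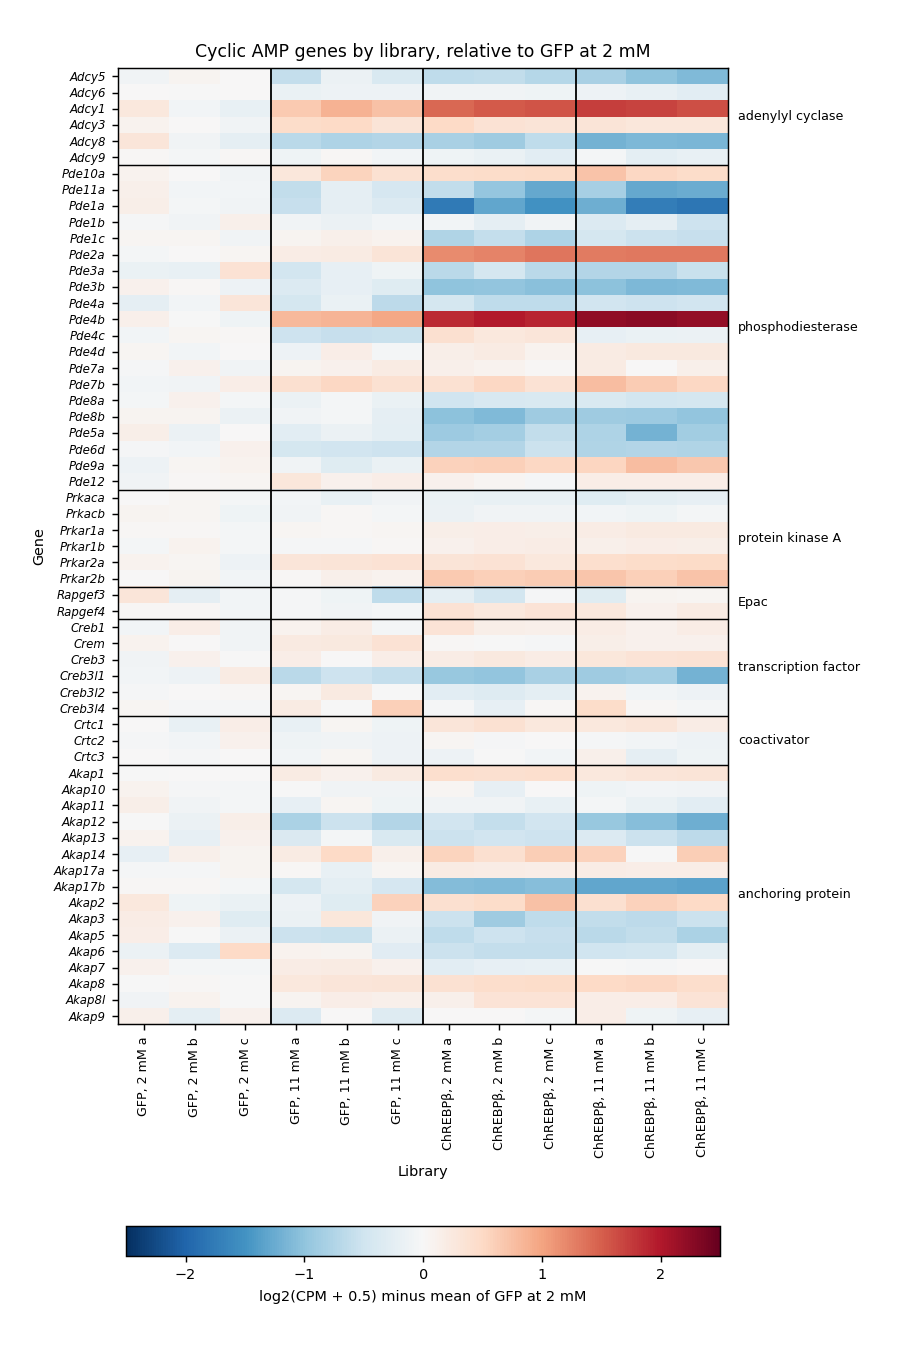
Heat map of the 59 tested cyclic AMP genes (rows, by family) in the 12 libraries (columns, by group), coloured by log2(CPM + 0.5) minus the mean of the 3 GFP libraries at 2 mM glucose. On average over the 6 ChREBPβ libraries, Pde4b, Pde2a and Adcy1 are reddest and Pde1a and Akap17b bluest, and most protein kinase A and CRTC rows stay pale.

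The comparisons of ChREBPβ with GFP at 2 and at 11 mM share no library. Of the 59 genes, 7 rose and 15 fell at both concentrations, 0 moved in opposite directions, 15 were called at 2 mM alone, 1 at 11 mM alone and 21 at neither. The 22 called alike were 59.5% of those called at 2 mM and 95.7% of those called at 11 mM, where the same shares over all tested genes were 64% and 84.5%. Of the 15 called at 2 mM alone, the interaction itself passed for 2, Adcy3 and Akap1, so for the other 13 a difference between the glucose concentrations was not shown. The gene called at 11 mM alone was Pde1b, a calmodulin-dependent phosphodiesterase (log2 fold change -0.28, adjusted p = 0.0209 in edgeR), a call lost in edgeR without GFP 11 mM replicate a (adjusted p = 0.0512) or c (adjusted p = 0.0639) or without ChREBPβ 11 mM replicate c (adjusted p = 0.112), and under the minimum with RLE factors or in DESeq2 (-0.26 each). Pde1b overlaps Ppp1r1a in the RefSeq annotation.

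**Figure D2:**
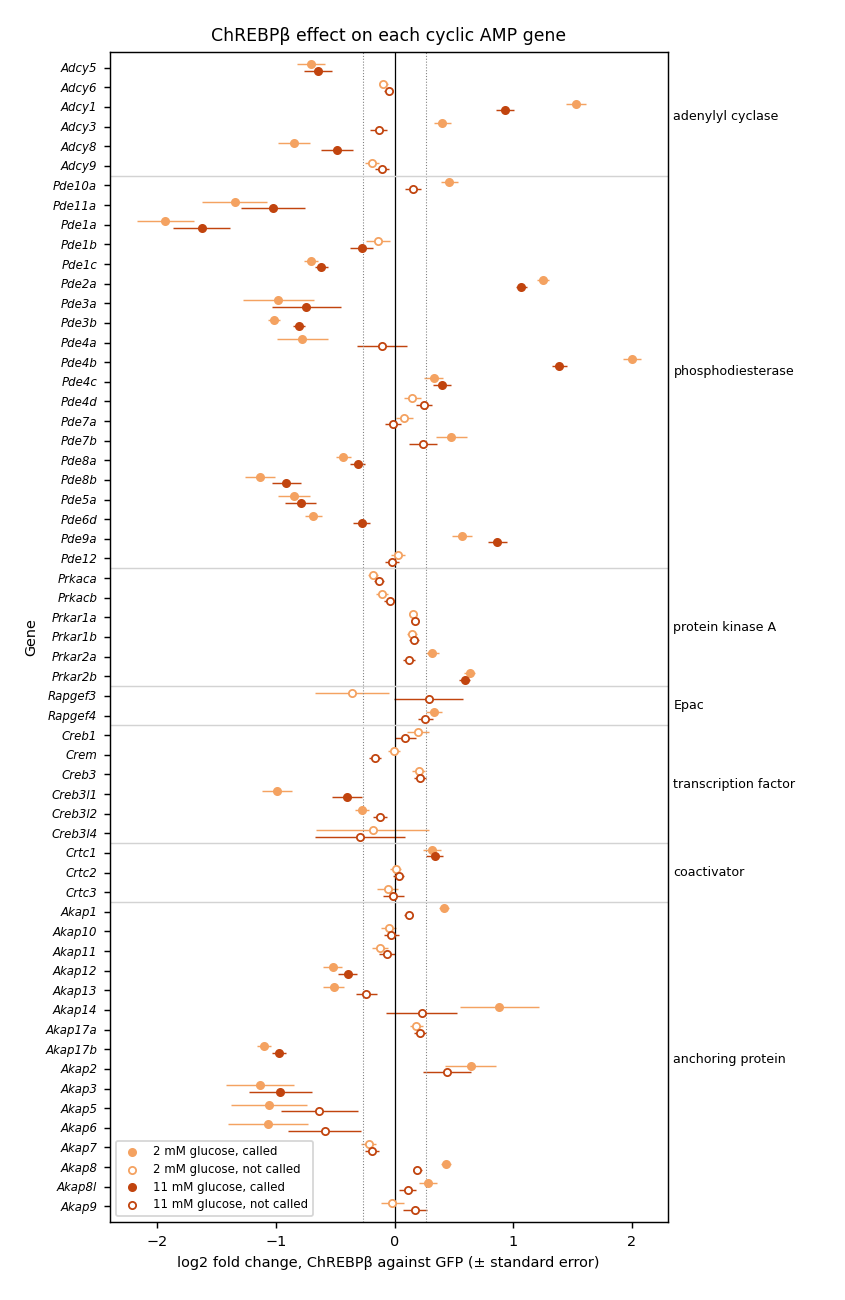
Log2 fold change of each of the 59 tested genes with ChREBPβ against GFP at 2 mM (orange) and 11 mM glucose (red), with the standard error (SE) from edgeR as the bar. Filled points passed the test, open points did not, and the dotted lines mark 1.2-fold. Pde4b lies farthest right and Pde1a farthest left at both concentrations, and the phosphodiesterases spread more widely than the protein kinase A subunits.

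Of the 6 adenylyl cyclases, Adcy1 and Adcy3 rose and Adcy5 and Adcy8 fell with ChREBPβ at 2 mM, and Adcy1 rose and Adcy5 and Adcy8 fell at 11 mM. Adcy1, a cyclase stimulated by calcium and calmodulin, was at 23.4, 18.5 and 17 CPM in GFP libraries a, b and c at 2 mM, compared with 53.5, 56.9 and 58.8 in the ChREBPβ libraries. At 11 mM it was at 31.1, 36.1 and 32.7 in GFP and 65.4, 64.1 and 60.8 in ChREBPβ libraries. Every ChREBPβ library was above every GFP library, and within each virus every 11 mM library was above every 2 mM library. ChREBPβ raised it by 1.53 on the log2 scale at 2 mM (standard error, SE, 0.08, adjusted p = 5.51e-12 in edgeR) and by 0.93 at 11 mM (SE 0.08, adjusted p = 4.53e-09 in edgeR). Glucose with GFP raised it 1.70-fold (adjusted p = 1.14e-06 in edgeR), while the step with ChREBPβ was 1.12-fold and did not pass the test (adjusted p = 0.207 in edgeR).

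Adcy8, also stimulated by calcium and calmodulin, was highest without either stimulus. It was at 9.63, 7.2 and 6.54 CPM in the GFP libraries at 2 mM, 4.67, 4.31 and 4.44 in those at 11 mM, 4.15, 3.92 and 4.8 with ChREBPβ at 2 mM and 3.12, 3.26 and 3.2 with ChREBPβ at 11 mM. No ChREBPβ library overlapped the GFP libraries at the same glucose concentration, and GFP at 11 mM was apart from GFP at 2 mM. ChREBPβ lowered it 1.80-fold at 2 mM (adjusted p = 1.87e-05 in edgeR) and 1.40-fold at 11 mM (adjusted p = 0.00594), and glucose with GFP lowered it 1.73-fold (adjusted p = 0.000116). Thus 1 of the calcium-stimulated cyclases rose with ChREBPβ at both glucose concentrations and another fell.

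Adcy3, the remaining calcium-stimulated member, was at 14, 13.3 and 12.4 CPM in GFP libraries and 18.8, 17.2 and 16.7 in ChREBPβ libraries at 2 mM. At 11 mM the values were 18.3, 18.8 and 16.6 with GFP and 16.7, 16.1 and 16.1 with ChREBPβ, so the libraries were apart at 2 mM and overlapped at 11 mM. ChREBPβ gave a log2 fold change of 0.40 at 2 mM (SE 0.07, adjusted p = 9.82e-05 in edgeR) and -0.14 at 11 mM (SE 0.07, adjusted p = 0.112). The interaction was -0.54 (SE 0.10, adjusted p = 0.00193). Adcy3 overlaps the genes Cenpo and Dnajc27 in the RefSeq annotation, and reads of overlapping genes may not be told apart here.

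Among the calcium-inhibited cyclases, Adcy5 fell and Adcy6 differed by less than 1.2-fold. Adcy5 was at 8.71, 9.8 and 9.39 CPM with GFP and 5.8, 5.88 and 5.5 with ChREBPβ at 2 mM, and at 6, 8.33 and 7.02 and 5.1, 4.37 and 4.08 at 11 mM. The groups were apart at both concentrations, with log2 fold changes of -0.70 (adjusted p = 4.15e-05 in edgeR) and -0.65 (adjusted p = 0.000129). Glucose with GFP also lowered Adcy5 (-0.39, adjusted p = 0.0127), a call lost without GFP 2 mM replicate b (adjusted p = 0.0535) or GFP 11 mM replicate a (adjusted p = 0.0833). Adcy6 was at 306, 302 and 307 CPM with GFP and 288, 286 and 282 with ChREBPβ at 2 mM, and at 273, 278 and 278 and 280.4, 268 and 253 at 11 mM, with log2 fold changes of -0.10 (SE 0.04) and -0.05 (SE 0.04). Adcy9, a membrane cyclase with little response to calcium through calmodulin, had log2 fold changes of -0.19 and -0.11, neither past the minimum except the former with library totals (-0.29). Adcy6 overlaps Tuba1c in the RefSeq annotation.

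**Figure D3:**
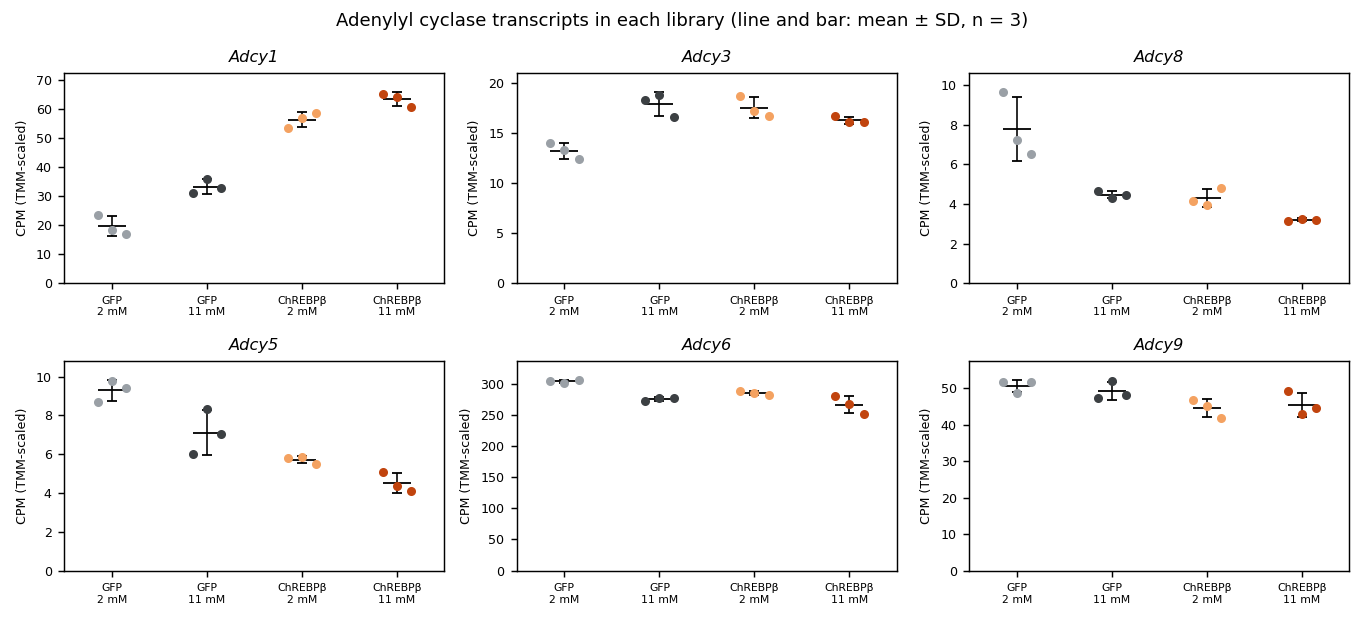
CPM after TMM scaling of the 6 adenylyl cyclases in each library, by virus and glucose concentration, with the mean and SD of the 3 libraries as line and bar and axes that start at 0. Adcy1 lies between 53.5 and 65.4 CPM in the ChREBPβ libraries and between 17 and 36.1 in the GFP libraries, and Adcy8 is highest with GFP at 2 mM.

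The phosphodiesterases were the family with the largest share of genes changed by ChREBPβ. At 2 mM 16 of 20 (80%) changed, 6 higher and 10 lower, against 44.1% of all tested genes, and at 11 mM 14 of 20 (70%) changed, 4 higher and 10 lower, against 33.4%. Glucose with GFP changed 6 of 20 (30%), against 20.2%, while among the 6 cyclases it changed 4 (66.7%). Those that degrade both cyclic AMP and cyclic GMP were mostly lower, with 2 of 8 higher and 5 lower at 2 mM and 1 higher and 6 lower at 11 mM. Of the 8 specific for cyclic AMP, 3 rose and 3 fell at 2 mM, and 2 rose and 2 fell at 11 mM. Of the 3 of the cyclic GMP class, Pde9a rose and Pde5a and Pde6d fell at both concentrations. Pde12, an enzyme of mitochondria that does not act on cyclic nucleotides, did not pass at either (log2 fold changes 0.03 and -0.02).

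Pde4b, a cyclic AMP-specific enzyme, showed the largest rise of the 59 genes at both glucose concentrations. It was at 7.02, 6.3 and 5.9 CPM with GFP and 24.5, 26.9 and 25.2 with ChREBPβ at 2 mM, and at 11.6, 11.9 and 12.9 and 31.6, 32.3 and 31.2 at 11 mM. The 4 groups did not overlap one another, and they rose in the order GFP 2 mM, GFP 11 mM, ChREBPβ 2 mM and ChREBPβ 11 mM. ChREBPβ raised it 4.0-fold at 2 mM (adjusted p = 1.48e-14 in edgeR) and 2.62-fold at 11 mM (adjusted p = 8.36e-13). Glucose raised it 1.90-fold with GFP (adjusted p = 4.96e-08) and 1.24-fold with ChREBPβ (adjusted p = 0.00348), the only rise of the 59 with glucose in ChREBPβ cells.

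The other 3 genes of the PDE4 family did not follow Pde4b. Pde4d was at 21.4, 19.7 and 20.9 CPM with GFP and 22.9, 23.8 and 22 with ChREBPβ at 2 mM, and at 18.9, 23.3 and 19.9 and 24, 24.7 and 24.7 at 11 mM. Its log2 fold changes of 0.15 (SE 0.07) and 0.25 (SE 0.07, adjusted p = 0.00567 in edgeR) stayed under 1.2-fold, the latter passing it without GFP 11 mM replicate b (log2 fold change 0.34) and with edgeR's RLE factors or in DESeq2 (0.27 each). Pde4c rose with ChREBPβ at both concentrations (0.33 and 0.40, the former under the minimum at 0.23 with library totals in place of TMM) but fell with glucose, by 0.58 on the log2 scale with GFP (adjusted p = 1.42e-05) and by 0.51 with ChREBPβ (adjusted p = 0.000176). Its libraries were at 9.89, 10.9 and 10.6 and 7.12, 6.83 and 7 CPM with GFP at 2 and 11 mM, and at 14, 12.7 and 12.9 and 9.01, 9.24 and 9.44 with ChREBPβ. In each of these comparisons the libraries were apart. Pde4a, at 1.23 to 2.85 CPM over the 12 libraries, fell at 2 mM (log2 fold change -0.78, adjusted p = 0.00435) and was not called at 11 mM (log2 fold change -0.10).

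Pde2a, which degrades both nucleotides and is stimulated by cyclic GMP, was at 64.8, 67.1 and 69.5 CPM with GFP and 152, 158 and 169.9 with ChREBPβ at 2 mM, and at 76.7, 77.5 and 84.3 and 165, 168 and 168 at 11 mM. All 6 ChREBPβ libraries were above all 6 GFP libraries, with a log2 fold change of 1.25 (SE 0.05, adjusted p = 2.82e-14 in edgeR) at 2 mM and 1.07 (SE 0.05, adjusted p = 4.16e-13) at 11 mM. Pde9a, which is specific for cyclic GMP, was at 12.1, 13.8 and 14.3 CPM with GFP and 20.1, 20.3 and 19.2 with ChREBPβ at 2 mM, and at 12.6, 10.8 and 11.9 and 19.6, 23.1 and 21.7 at 11 mM. It too was apart in every ChREBPβ library, 1.48-fold higher at 2 mM (adjusted p = 6.44e-06) and 1.82-fold higher at 11 mM (adjusted p = 1.75e-08). Pde10a, a dual-specificity enzyme, was at 66.7, 62.5 and 58.6 CPM in the GFP libraries at 2 mM, 76.2, 92.5 and 81.4 in those at 11 mM, 85.3, 86.5 and 86.8 with ChREBPβ at 2 mM and 102, 90.1 and 85.6 with ChREBPβ at 11 mM. It rose 1.38-fold with ChREBPβ at 2 mM (adjusted p = 1.24e-05) and 1.33-fold with glucose in GFP cells (adjusted p = 0.000131), and the groups overlapped at 11 mM, where its log2 fold change was 0.15 (adjusted p = 0.0656). Pde7b, specific for cyclic AMP, was called in the same 2 comparisons, with log2 fold changes of 0.48 and 0.48.

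Pde3b, a cyclic GMP-inhibited enzyme that is prominent in β-cells, was at 236, 226 and 201 CPM with GFP and 109.8, 110.5 and 107 with ChREBPβ at 2 mM, and at 175, 190.5 and 179.5 and 108, 101 and 102 at 11 mM. The ChREBPβ libraries lay in a narrow band below every GFP library, and the fall was 2.02-fold at 2 mM (adjusted p = 2.49e-12 in edgeR) and 1.75-fold at 11 mM (adjusted p = 1.16e-10). Glucose with GFP lowered it by 0.28 on the log2 scale (adjusted p = 0.000273), which fell under the 1.2-fold minimum without replicate a of GFP at 2 mM (-0.23) or of GFP at 11 mM (-0.26). Pde3a, its paralogue with few reads (0.456 to 1.54 CPM), also fell at 2 mM (-0.98, adjusted p = 0.00816) and 11 mM (-0.75, adjusted p = 0.0399). These 2 calls were not stable: without GFP 2 mM replicate c the adjusted p at 2 mM was 0.0814, and at 11 mM the call was lost without GFP 11 mM replicate b (0.0929) or c (0.152), ChREBPβ 2 mM replicate a (0.0502) or ChREBPβ 11 mM replicate a (0.106) or b (0.113). Pde3b overlaps Cyp2r1 in the RefSeq annotation.

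Among the calcium- and calmodulin-dependent PDE1 enzymes, Pde1a and Pde1c fell at both glucose concentrations. Pde1c was at 51.3, 51 and 46.7 CPM with GFP and 29.1, 32.8 and 29 with ChREBPβ at 2 mM, and at 52, 54.4 and 52.6 and 36.2, 33.9 and 33.3 at 11 mM. The groups were far apart, with log2 fold changes of -0.71 (SE 0.06, adjusted p = 3.1e-09 in edgeR) and -0.62 (SE 0.06, adjusted p = 1.86e-08), and glucose made a difference of 0.09 with GFP that did not pass. Pde1a, with 17 to 116 counts in a library, was at 3.64, 3.15 and 3.01 CPM with GFP and 0.609, 1.03 and 0.824 with ChREBPβ at 2 mM, and at 2.04, 2.71 and 2.45 and 1.11, 0.632 and 0.567 at 11 mM. Its fall, 3.82-fold at 2 mM (adjusted p = 1.03e-06) and 3.09-fold at 11 mM (adjusted p = 1.05e-05), was the largest of the 59 genes.

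Pde8b, a high-affinity enzyme specific for cyclic AMP, was at 5.99, 6.01 and 5.07 CPM with GFP and 2.54, 2.39 and 2.83 with ChREBPβ at 2 mM, and at 5.31, 5.44 and 4.76 and 2.81, 2.81 and 2.6 at 11 mM. The highest ChREBPβ library was below the lowest GFP library, and the fall was 2.19-fold at 2 mM (adjusted p = 2.96e-07 in edgeR) and 1.88-fold at 11 mM (adjusted p = 3.66e-06), with no call for glucose. Its paralogue Pde8a fell by 0.43 and 0.31 on the log2 scale (adjusted p = 7.33e-06 and 0.000298). Pde11a, a dual-specificity enzyme with 31 to 67 counts in a library, was at 2.31, 1.95 and 1.96 CPM with GFP and 1.18, 0.82 and 0.555 with ChREBPβ at 2 mM, and at 1.17, 1.69 and 1.42 and 0.938, 0.561 and 0.585 at 11 mM. It fell 2.54-fold at 2 mM (adjusted p = 0.000292) and 2.03-fold at 11 mM (adjusted p = 0.00377), without overlap between the viruses at the same glucose concentration.

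In the cyclic GMP class, Pde5a, the target of sildenafil, fell by 0.85 on the log2 scale at 2 mM (adjusted p = 2.18e-05 in edgeR) and by 0.79 at 11 mM (adjusted p = 4.8e-05). Pde6d, which despite its name binds prenylated proteins and carries no catalytic domain, was at 21.4, 20.8 and 23.5 CPM with GFP and 12.9, 12.9 and 14.9 with ChREBPβ at 2 mM, and at 16.1, 15.5 and 15.2 and 12.8, 12.9 and 12.8 at 11 mM. GFP at 2 mM stood above the other 3 groups. Its log2 fold change was -0.68 at 2 mM (adjusted p = 1.17e-07) and -0.28 at 11 mM (adjusted p = 0.00314), the latter under the minimum without GFP 11 mM replicate a, with RLE factors or in DESeq2 (-0.26 each). Pde7a did not pass in any comparison (log2 fold changes with ChREBPβ 0.08 and -0.01).

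**Figure D4:**
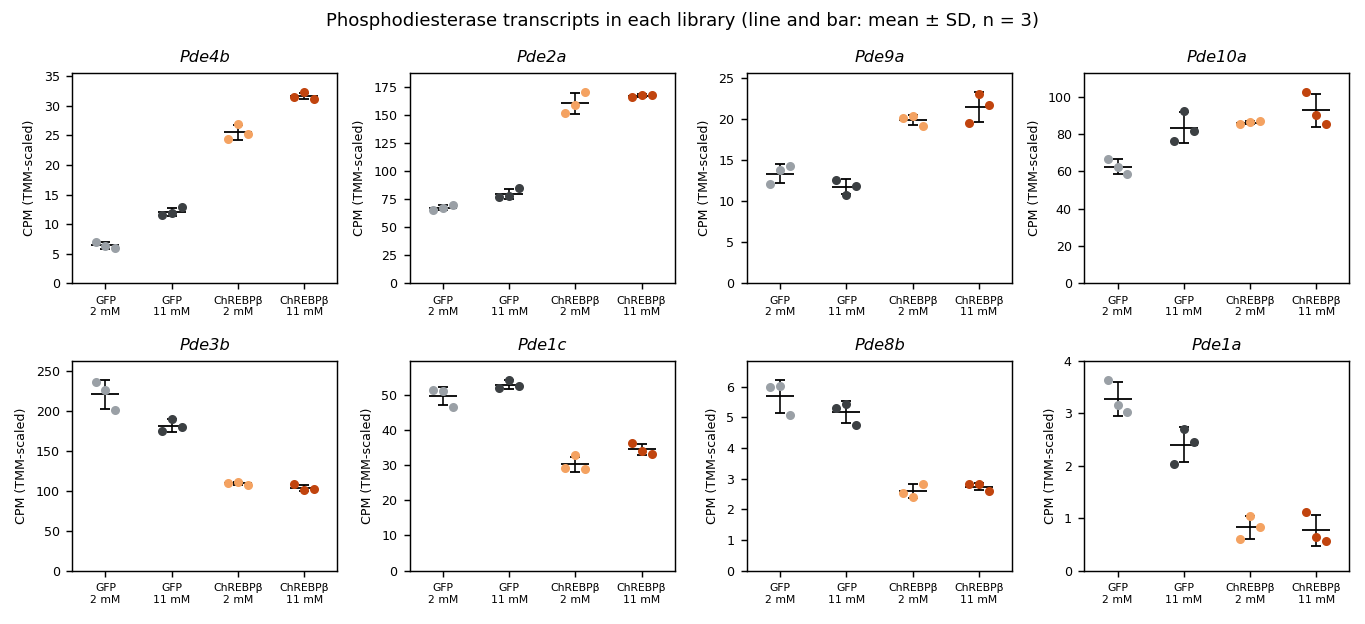
CPM after TMM scaling of 8 phosphodiesterases in each library, by virus and glucose concentration, with the mean and SD of the 3 libraries as line and bar and axes that start at 0. Pde4b, Pde2a and Pde9a are higher and Pde3b, Pde1c, Pde8b and Pde1a lower in every ChREBPβ library than in every GFP library, while Pde10a overlaps at 11 mM.

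ChREBP with its partner Mlx binds pairs of E-boxes, and CREB binds the cyclic AMP response element, so the promoters were searched for the letters of a single E-box and of this element. The full paired site of ChREBP and Mlx was not searched. RefSeq promoters of 300 bases (250 before to 50 after the gene's start, GRCr8 build) could be matched to 49 of the 60 genes. Only the first window listed for a gene was used, so any other promoter of that gene was not searched. The full cyclic AMP response element TGACGTCA was in 1 of the 49, Akap17a, and in 1.83% of all 33469 promoters of that length. Its 5-base part TGACG, which the full element contains, was in 16 of 49 (32.7%) and in 21.2% of all. The E-box CACGTG was in 4 of 49 (8.16%), Pde8b, Prkar1a, Akap10 and Akap11, and in 6.42% of all. Of these 4, Akap11 alone held 2 E-boxes, 131 and 95 bases before its start. Both strands were searched. Of the genes with a promoter, the E-box was in 0 of 12 that rose with ChREBPβ at 2 mM, in 1 of 17 that fell and in 3 of 19 that were not called. At 11 mM it was in 0 of 5 that rose, 1 of 12 that fell and 3 of 31 not called.

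The promoters of Pde4b, the gene that rose most, of Pde8b, the gene that fell and held an E-box, and of Prkar1a, which held an E-box and stayed under 1.2-fold, are printed below 5′ to 3′ along the gene's strand, with the E-box in capitals. They lie at chr5:122028706-122029005 on the plus strand, chr2:28116002-28116301 on the minus strand and chr10:95120287-95120586 on the plus strand of GRCr8. The E-box begins 22 bases before the start of Pde8b and 47 bases before that of Prkar1a, and the Pde4b window holds none of the 3 motifs.
Pde4b: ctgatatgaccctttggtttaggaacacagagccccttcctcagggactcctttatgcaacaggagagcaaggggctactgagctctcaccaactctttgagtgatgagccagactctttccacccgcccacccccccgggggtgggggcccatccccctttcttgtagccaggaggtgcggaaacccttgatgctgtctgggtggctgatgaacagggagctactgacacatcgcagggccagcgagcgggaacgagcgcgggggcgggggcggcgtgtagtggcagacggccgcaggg
Pde8b: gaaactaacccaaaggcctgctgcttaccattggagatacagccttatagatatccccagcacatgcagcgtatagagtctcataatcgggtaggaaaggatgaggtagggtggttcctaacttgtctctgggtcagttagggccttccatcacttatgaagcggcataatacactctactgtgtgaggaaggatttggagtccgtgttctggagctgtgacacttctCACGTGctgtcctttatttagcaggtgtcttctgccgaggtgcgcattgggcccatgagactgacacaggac
Prkar1a: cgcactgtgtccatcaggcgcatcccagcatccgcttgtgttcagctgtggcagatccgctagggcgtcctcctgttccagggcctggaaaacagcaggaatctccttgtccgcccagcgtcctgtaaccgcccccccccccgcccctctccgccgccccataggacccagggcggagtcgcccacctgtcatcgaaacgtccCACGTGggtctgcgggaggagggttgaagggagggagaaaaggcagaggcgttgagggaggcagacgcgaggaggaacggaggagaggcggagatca

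Of the 6 protein kinase A subunits, 2 rose with ChREBPβ at 2 mM and 1 at 11 mM, and none fell past the minimum. Prkaca, the main catalytic subunit, was at 246, 252 and 238 CPM with GFP and 217, 214 and 216 with ChREBPβ at 2 mM, and at 233, 216 and 229.6 and 200.1, 206 and 213 at 11 mM. The ChREBPβ libraries were below the GFP libraries at each glucose concentration, but the log2 fold changes of -0.18 (SE 0.04, adjusted p = 0.000708 in edgeR) and -0.13 (SE 0.04, adjusted p = 0.0106) were under 1.2-fold. With library totals in place of TMM the former was -0.28 and passed. The other catalytic subunit, Prkacb, had log2 fold changes of -0.10 and -0.04.

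Prkar1a, the type I regulatory subunit, whose promoter is printed above, was at 539.5, 536 and 507 CPM with GFP and 583, 590.5 and 587 with ChREBPβ at 2 mM, and at 542, 536 and 546 and 601, 615 and 615 at 11 mM. Although the groups were apart, the differences were 1.11-fold (adjusted p = 0.00111 in edgeR) and 1.13-fold (adjusted p = 5e-04). Prkar1b had log2 fold changes of 0.15 and 0.16, also under the minimum. In the RefSeq annotation Prkar1a overlaps Fam20a and Prkar1b overlaps Dnaaf5. The type II subunit Prkar2b rose at both glucose concentrations, from 59.6, 62.1 and 56.4 CPM with GFP to 93.8, 89.7 and 92.5 with ChREBPβ at 2 mM and from 60.4, 64.5 and 62.7 to 96, 89.6 and 97 at 11 mM. This was the one protein kinase A gene called in both ChREBPβ comparisons, 1.55-fold higher at 2 mM (adjusted p = 1.15e-09) and 1.51-fold at 11 mM (adjusted p = 3.18e-09). Prkar2a rose with ChREBPβ at 2 mM (0.32) and with glucose in GFP cells (0.33), but both fell under the minimum without GFP 2 mM replicate c (0.26 each), the former also with library totals (0.22).

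Of the Epac genes, Rapgef4 (Epac2), the form known in β-cells for its action on insulin granule release, was at 15, 14.8 and 13.9 CPM with GFP and 18.9, 17.6 and 18.6 with ChREBPβ at 2 mM, and at 14.2, 13.6 and 14 and 17.5, 15.7 and 16.9 at 11 mM. It was higher in every ChREBPβ library than in any GFP library. The rise passed at 2 mM (log2 fold change 0.33, adjusted p = 0.000305 in edgeR) but not with library totals in place of TMM (0.23), and at 11 mM the value of 0.26 (adjusted p = 0.00251) was just under the minimum, which it passed with edgeR's RLE factors or in DESeq2 (0.28 each) and without GFP 11 mM replicate a (0.27) or c (0.26), ChREBPβ 2 mM replicate a (0.26) or ChREBPβ 11 mM replicate b (0.30). Rapgef3 (Epac1) had 24 to 67 counts in a library and did not pass in any comparison.

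Of the transcription factors, Creb1 and Crem showed no change with ChREBPβ that passed with all libraries. Creb1 was at 11.8, 14.2 and 11.7 CPM with GFP and 16, 14 and 13.7 with ChREBPβ at 2 mM, and at 13.2, 14.3 and 12 and 14.3, 13.5 and 14.2 at 11 mM. The libraries overlapped in every comparison, with log2 fold changes of 0.20 (SE 0.09, adjusted p = 0.0685 in edgeR) and 0.09 (SE 0.09), the former passing only without GFP 2 mM replicate b (0.30, adjusted p = 0.0126). Creb1 overlaps Mettl21a in the RefSeq annotation. Crem, which gives rise to both activators and repressors such as ICER, was at 52.6, 49.9 and 46.5 CPM with GFP and 50.6, 49.1 and 48.5 with ChREBPβ at 2 mM, and at 58.3, 58.9 and 63.7 and 54.9, 53.1 and 53.2 at 11 mM. It was highest with GFP at 11 mM, where glucose raised it 1.22-fold (adjusted p = 0.000292), a call lost without GFP 2 mM replicate c (log2 fold change 0.24) or GFP 11 mM replicate c (0.24) or with library totals (0.25). With ChREBPβ, Crem had log2 fold changes of -0.01 at 2 mM and -0.17 at 11 mM (SE 0.05, adjusted p = 0.01 in edgeR). At 11 mM every ChREBPβ library was below every GFP library, but the change was under the minimum. Counts per gene do not separate the Crem isoforms.

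Of the membrane-bound CREB3 family, which is released by proteolysis in the secretory pathway, Creb3l1 fell. It was at 7.61, 7.32 and 9.36 CPM with GFP and 3.94, 3.83 and 4.41 with ChREBPβ at 2 mM, and at 4.87, 5.46 and 5.14 and 4.13, 4.26 and 3.27 at 11 mM. GFP at 2 mM was highest, and the viruses were apart at both concentrations. The log2 fold change was -0.99 at 2 mM (adjusted p = 1.52e-06 in edgeR), -0.40 at 11 mM (adjusted p = 0.0121, or 0.0733 without ChREBPβ 11 mM replicate c) and -0.65 for glucose with GFP (adjusted p = 0.000411). Creb3l2 fell at 2 mM (-0.28), which without ChREBPβ 2 mM replicate b was under the minimum (-0.25). Creb3 was higher in every ChREBPβ library than in the GFP libraries at the same glucose concentration. Its log2 fold changes of 0.20 and 0.21 (adjusted p = 0.00271 and 0.00193 in edgeR) were under the minimum. Creb3l4 did not pass with ChREBPβ at either concentration.

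Among the coactivators, Crtc2, which CREB uses in islets and liver, was at 65.5, 63.1 and 71.3 CPM with GFP and 68.8, 65.2 and 67.2 with ChREBPβ at 2 mM, and at 61.4, 62.6 and 60.9 and 65, 63.1 and 61.2 at 11 mM. The libraries overlapped between the viruses, and the log2 fold changes were 0.01 (SE 0.05) and 0.04 (SE 0.05). Crtc1 rose by 0.31 at 2 mM (adjusted p = 0.00134 in edgeR) and 0.34 at 11 mM (adjusted p = 0.000749) on the log2 scale. Without GFP 2 mM replicate b the rise at 2 mM was 0.23, under the minimum, and with library totals in place of TMM neither passed (0.22 and 0.25). Crtc3 was not called.

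Of the 16 anchoring proteins, 5 rose and 6 fell at 2 mM, and 3 fell at 11 mM. These are 68.8% and 18.8% of the family, against 44.1% and 33.4% of all tested genes. Akap17b was at 39.9, 39.7 and 37.5 CPM with GFP and 18.2, 17.9 and 18.4 with ChREBPβ at 2 mM, and at 28.6, 32.9 and 29.2 and 15.5, 15.5 and 15.2 at 11 mM. The ChREBPβ libraries varied little within each group and lay well below the GFP libraries, a fall of 2.15-fold at 2 mM (adjusted p = 5.39e-12 in edgeR) and 1.96-fold at 11 mM (adjusted p = 4.64e-11). Akap12 (gravin), a scaffold at the plasma membrane, was at 79, 72.4 and 89 CPM with GFP and 57.4, 52.4 and 57.5 with ChREBPβ at 2 mM, and at 46, 55 and 47.6 and 41.3, 37.7 and 33.9 at 11 mM. It was one of 2 members lowered by glucose with either virus, by 0.70 with GFP (adjusted p = 1.53e-06) and 0.57 with ChREBPβ (adjusted p = 0.000143) on the log2 scale, and ChREBPβ lowered it at 2 mM (-0.52) and 11 mM (-0.39).

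Akap1, which tethers protein kinase A to the outer mitochondrial membrane, was at 76.5, 77.6 and 78.1 CPM with GFP and 104, 102 and 104 with ChREBPβ at 2 mM, and at 88.8, 83.6 and 90.8 and 93.4, 95.9 and 96.2 at 11 mM. ChREBPβ libraries were above GFP libraries at both, 1.33-fold at 2 mM (adjusted p = 5.78e-08 in edgeR) and 1.08-fold, under the minimum, at 11 mM. Akap8, a nuclear anchoring protein, rose 1.35-fold with ChREBPβ at 2 mM (adjusted p = 2.85e-08) and 1.23-fold with glucose in GFP cells (adjusted p = 1.62e-05). Akap13 fell by 0.51 on the log2 scale at 2 mM (adjusted p = 5.28e-05). At 11 mM its log2 fold change of -0.24 was under the minimum, and passed it without GFP 11 mM replicate a (-0.29) or c (-0.30) or ChREBPβ 11 mM replicate a (-0.33) or with library totals (-0.32). Its call with glucose in GFP cells (-0.27, adjusted p = 0.0227) was lost without GFP 2 mM replicate a (adjusted p = 0.0901) or c (0.109), without GFP 11 mM replicate a (0.102) or c (0.12) and in DESeq2 (0.0709).

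Several anchoring proteins had few reads. Akap5, which places protein kinase A beside calcineurin at the membrane, had 10 to 33 counts in a library and was at 0.992, 0.816 and 0.705 CPM with GFP and 0.358, 0.428 and 0.394 with ChREBPβ at 2 mM, and at 0.42, 0.402 and 0.698 and 0.341, 0.368 and 0.274 at 11 mM. It fell 2.09-fold at 2 mM (adjusted p = 0.00793 in edgeR), and at 11 mM the log2 fold change of -0.64 did not pass (adjusted p = 0.113). Akap3, known from sperm, fell at both concentrations (-1.13 and -0.96). Akap6 fell at 2 mM (-1.07), but not without GFP 2 mM replicate c (-0.60, adjusted p = 0.15).

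Akap2, called Pakap in RefSeq, was at 3.05, 2.25 and 2.15 CPM with GFP and 3.4, 3.58 and 4.42 with ChREBPβ at 2 mM, and at 2.19, 1.9 and 3.89 and 3.39, 3.88 and 3.69 at 11 mM. It rose 1.56-fold at 2 mM (adjusted p = 0.0166 in edgeR), a call lost without GFP 2 mM replicate b (adjusted p = 0.0611) or c (0.0698) or ChREBPβ 2 mM replicate c (0.0904). At 11 mM GFP replicate c, at 3.89 CPM, was apart from the other GFP libraries, and without it the log2 fold change was 0.83 (adjusted p = 0.00103) instead of 0.44. The rises of Akap14 (0.88, 10 to 57 counts) and Akap8l (0.28) at 2 mM were each lost without any of several single libraries, to adjusted p values from 0.0526 to 0.111 for Akap14 (without replicate a or c of GFP or of ChREBPβ at 2 mM) and to log2 fold changes of 0.24 to 0.25 for Akap8l (without GFP replicate a or ChREBPβ replicate b or c at 2 mM). Akap7, Akap9, Akap10, Akap11 and Akap17a were not called in any comparison with TMM and all libraries, although without GFP 11 mM replicate b Akap9 passed with ChREBPβ at 11 mM (0.30, adjusted p = 0.01) and with glucose in GFP cells (-0.34, adjusted p = 0.00604), the latter also without GFP 2 mM replicate b (-0.33, adjusted p = 0.0124). With library totals in place of TMM, Akap7 passed with ChREBPβ at 2 mM (-0.32, adjusted p = 0.000252) and 11 mM (-0.27, adjusted p = 0.000862), and the rises of Akap14 (adjusted p = 0.0516) and Akap8l (0.18) at 2 mM were lost.

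**Figure D5:**
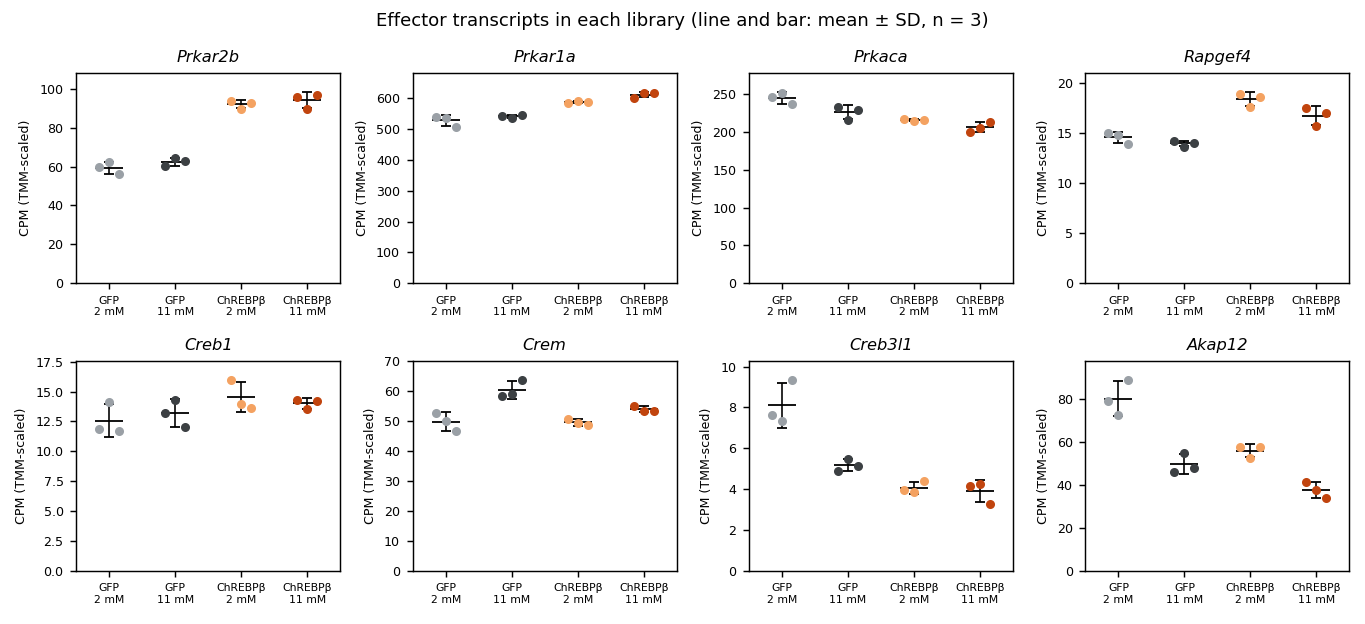
CPM after TMM scaling of 8 genes downstream of cyclic AMP in each library, by virus and glucose concentration, with the mean and SD of the 3 libraries as line and bar and axes that start at 0. Prkar2b is higher in every ChREBPβ library than in every GFP library, Prkar1a, Prkaca and Creb1 differ by less than 1.2-fold between the viruses, and Creb3l1 and Akap12 are highest with GFP at 2 mM.

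The interaction singled out genes whose ChREBPβ effect on the log2 scale differed between 2 and 11 mM. It compares fold changes, and differences in CPM were not tested. The effect was smaller at 11 mM for Pde4b (interaction log2 -0.61, SE 0.10, adjusted p = 0.000626 in edgeR), Adcy1 (-0.60, SE 0.11, adjusted p = 0.00223) and Akap1 (-0.30, SE 0.06, adjusted p = 0.00308), and for Adcy3, given above, it was not detected at 11 mM. For these 4, GFP cells at 11 mM were above GFP cells at 2 mM in every library. The fall was smaller at 11 mM for Pde6d (0.41, SE 0.10, adjusted p = 0.0175) and Creb3l1 (0.59, SE 0.18, adjusted p = 0.0496), and in GFP cells both were lower at 11 than at 2 mM in every library. The Pde6d interaction was lost without GFP 11 mM replicate c (adjusted p = 0.0532) or ChREBPβ 2 mM replicate b (0.0632). That of Creb3l1 was lost without any of 9 single libraries (adjusted p from 0.0527 to 0.13): all except GFP 2 mM replicate b, GFP 11 mM replicate b and ChREBPβ 11 mM replicate c.

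Upstream of the cyclases, 29 receptor and G protein genes were listed, of which 25 were tested. With ChREBPβ 8 rose and 10 fell at 2 mM, and 8 rose and 8 fell at 11 mM, with medians of -0.071 and 0.023 on the log2 scale. The shares called were 72% and 64%, against 44.1% and 33.4% of all tested genes. The incretin receptors fell. Glp1r, the receptor for GLP-1, was at 61.8 ± 1.12, 39.9 ± 1.54, 39.5 ± 2.64 and 28.8 ± 0.582 CPM in GFP at 2 mM, GFP at 11 mM, ChREBPβ at 2 mM and ChREBPβ at 11 mM (mean ± SD, n = 3), with log2 fold changes with ChREBPβ of -0.64 and -0.47 (adjusted p = 2.57e-09 in edgeR and 3.59e-07). Gipr, the receptor for GIP, fell by 0.83 and 0.70 (adjusted p = 3.09e-11 and 6.12e-10). In contrast Gcgr, the glucagon receptor, rose 2.33-fold at 2 mM (adjusted p = 1.17e-14) and 1.31-fold at 11 mM (adjusted p = 3.05e-07), and Vipr1, a receptor for VIP, rose 3.14-fold and 2.03-fold from 0.735, 1.23 and 1.48 CPM with GFP at 2 mM (adjusted p = 1.23e-06 and 0.000125). Mtnr1a, an inhibitory melatonin receptor, fell 2.37-fold and 2.01-fold (adjusted p = 3.18e-11 and 4.16e-10). Other inhibitory receptors of the list went both ways. For example, Adora1 had log2 fold changes of 1.06 and 0.85 at 2 and 11 mM, and Adra2a of -0.63 and -0.45. Gnas, which encodes the stimulatory G protein, fell by 0.46 at 2 mM (adjusted p = 3.42e-07) and at 11 mM had a log2 fold change of -0.26, under the minimum. Glucose with GFP raised 4 and lowered 4 of the 25 (32%, against 20.2% of all tested genes).

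Of 22 listed inhibitors of protein kinase A, Rap proteins and CREB partners, 20 were tested, and with ChREBPβ 2 rose and 6 fell at 2 mM and 2 rose and 3 fell at 11 mM. These shares of 40% and 25% were no higher than the 44.1% and 33.4% of all tested genes. Pkia, a peptide inhibitor of protein kinase A, fell by 0.43 and 0.50 on the log2 scale (adjusted p = 1.08e-05 in edgeR and 1.62e-06), while Pkib had log2 fold changes of 0.05 and 0.18 and did not pass. Rap1b, a small GTPase that Epac activates, fell by 0.58 and 0.45 (adjusted p = 2.42e-09 and 1.29e-07). Ppp1r1a, a phosphatase inhibitor that protein kinase A switches on, fell by 0.50 at 2 mM (adjusted p = 4.51e-06) and Crebl2 by 0.46 (adjusted p = 0.0013), and neither passed at 11 mM (-0.23 and -0.26). Sik1, a kinase that CREB induces and that restrains the CRTC coactivators, had log2 fold changes of 0.08 and 0.23 and did not reach the minimum. Sik2 rose by 0.45 at 2 mM (adjusted p = 7.1e-07 in edgeR) and 0.46 at 11 mM (adjusted p = 6.09e-07). Sik3 did not pass (0.07 and 0.17). The other of the 2 that rose at 2 mM was Crebzf (0.27, adjusted p = 2.87e-05). Glucose with GFP lowered 3 of these 20 (15%, against 20.2%).

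Genes known as CREB targets went both ways. Of 24 listed, 22 were tested, and with ChREBPβ 6 rose and 10 fell at 2 mM and 5 rose and 8 fell at 11 mM, with medians of -0.22 and -0.18 on the log2 scale. The shares called were 72.7% and 59.1%, against 44.1% and 33.4% of all tested genes. Junb, an immediate early gene, rose 2.82-fold and 2.37-fold (adjusted p = 5.49e-15 in edgeR and 6.87e-14), and Ppargc1a, a coactivator of mitochondrial genes, rose 2.80-fold and 2.19-fold (adjusted p = 9.61e-12 and 3.76e-10). Scg2, a granin of secretory granules, fell 2.54-fold and 2.26-fold (adjusted p = 1.15e-16 and 1.67e-15). Glucose with GFP raised 3 and lowered 2 of the 22 (22.7%, near the 20.2% of all tested genes).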

How the data were processed

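RNA of INS-1 832/13 cells was sequenced in 12 libraries after amplification with a kit that does not mark strand. The authors deposited raw read counts per gene, without normalization, beside the mean of each group; these 4 columns were not used, and the number of other columns of single samples was 0. The submitters' processing notes name the Rnor_6.0 build and edgeR; the aligner and the counting program are not given in the sources used here. Of 28728 entries, 1 had no gene name (0.0043% to 0.00601% of a library's counts) and was left out.

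Samples were grouped by their labels. In R 4.3.3, genes passing edgeR's filterByExpr by group (14669) were scaled with TMM factors (0.958 to 1.06) and tested with edgeR 4.0.16's quasi-likelihood test in 1 fit of all 12 libraries, with group as the factor. The 5 comparisons were contrasts of that fit, and p values were adjusted within each by the Benjamini-Hochberg method. Calls needed an adjusted p below 0.05 and at least a 1.2-fold difference, the fold minimum that the study's methods give. Adjusted p values in the text are from edgeR unless another tool is named. Standard errors (SE) were derived from the F statistic and the log2 fold change. The fits were tested on simulated data.

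The paper describes its heat map values as averages of independent experiments. Whether a letter marks a shared culture or experiment is not stated, and p values then measure the spread between these libraries. Every pair of libraries of a group differed by more than sampling noise (chi-square per degree of freedom 3.13 to 17.6). The letters were compared across groups by the correlation of their deviations from group means, which ranged from -0.276 to 0.139, so they were not taken as pairs.

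The genes and lists were chosen with earlier results of these data known. Values in each library are given for the called genes with the largest changes and a mean of at least 1 CPM (4 in each direction for each ChREBPβ comparison, 2 for glucose with GFP and for the interaction), and for genes well known in β-cells; Pde4c, Prkar2b, Akap1 and the ranges of Pde3a and Pde4a were added after their values were seen. From each list the 3 genes with the largest called change at 2 mM and a few known genes are named. Sik2, Sik3, Crebzf, Adora1 and Adra2a were added after their values were seen. All 60 genes matched a RefSeq symbol or, for 1, a synonym. Of these, 10 overlap another gene of the table there; without strand, their reads cannot be told apart where both are exonic. RefSeq coordinates are of GRCr8, not the build of the counts. Alternatives were RLE factors, library totals, other filters, DESeq2 1.42.0, a replicate block, other fold minimums, a test against 1.2-fold (glmTreat) and leaving out each library.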

Additional observations from a re-analysis of the deposited data

Results flagged for a closer look

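In 6 genes the change with ChREBPβ depended on the glucose concentration in edgeR's test of the difference itself. The differences, effect at 11 mM minus effect at 2 mM on the log2 scale, were -0.61 for Pde4b (adjusted p = 0.000626), -0.60 for Adcy1 (adjusted p = 0.00223), -0.54 for Adcy3 (adjusted p = 0.00193), -0.30 for Akap1 (adjusted p = 0.00308), 0.41 for Pde6d (adjusted p = 0.0175) and 0.59 for Creb3l1 (adjusted p = 0.0496). The ChREBPβ effects at 2 and 11 mM were 2.00 and 1.39 for Pde4b, 1.53 and 0.93 for Adcy1, 0.40 and -0.14 for Adcy3, 0.41 and 0.12 for Akap1, -0.68 and -0.28 for Pde6d and -0.99 and -0.40 for Creb3l1. The difference for Creb3l1 was at the threshold. Tested against 1.2-fold with edgeR's glmTreat, that of Pde4b alone kept its call. The adjusted p in that test was 0.0626 for Adcy1, 0.0952 for Adcy3, 0.439 for Creb3l1 and 0.614 for Pde6d, and Akap1 was not called either. The summed level of the β-cell markers, 14360 to 16240 CPM with GFP at 2 mM and 5058 to 5446 with ChREBPβ at 11 mM, moved across the same groups, and its part in these differences was not tested.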

How the results depend on the processing

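The counts of called genes (37 with ChREBPβ at 2 mM, 23 at 11 mM, 17 for glucose with GFP, 3 for glucose with ChREBPβ and 6 interactions) stayed within 1.5 times under RLE factors, library totals, other filters and DESeq2. They moved further with the fold minimum. At 1.5-fold they were 22, 15, 5, 0 and 3. Tested against 1.2-fold with glmTreat, they were 14 at 11 mM, 8 for glucose with GFP, 1 for glucose with ChREBPβ and 1 interaction (Pde4b). The glmTreat test dropped Adcy8, Pde1b, Pde3a, Pde4c, Pde6d, Pde8a, Creb3l1, Crtc1 and Akap12 at 11 mM. At 2 mM it dropped Pde4c, Pde7b, Prkar2a, Rapgef4, Creb3l2, Crtc1, Akap2, Akap8l and Akap14. For glucose with GFP it dropped Adcy5, Pde3b, Pde7b, Pde10a, Prkar2a, Crem, Akap8, Akap13 and Akap17b, and with ChREBPβ Pde4b and Pde4c. With no minimum the counts were 36 at 11 mM and 6 for glucose with ChREBPβ. Leaving out single libraries gave 32 to 37, 21 to 24, 15 to 20, 3 to 4 and 4 to 7. Single genes were compared in 128 tests under the alternatives other than no minimum and 1.5-fold. Of 2432 values, 2290 kept their status, whether called or not called. A call was lost in 95 and gained in 47, and none changed sign while called.

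The letters a, b and c were not taken as pairs, since the labels do not say what they mark and their correlations lay on both sides of 0. With the replicate block the counts were 37, 23, 17, 3 and 5, the one lost being the Creb3l1 interaction (0.59, edgeR adjusted p = 0.0659). Depth limits the genes with few reads: Creb3l4, with 8 to 35 counts in a library, had an SE of 0.48 on the log2 scale for ChREBPβ at 2 mM, so a 1.2-fold difference was not detectable for it. Calls were also gained for glucose with GFP by Pde4a (library totals, no filter and DESeq2), for glucose with ChREBPβ by Adcy8 (no filter and DESeq2), for the interaction by Pde10a (no filter and DESeq2) and Akap13 (no filter), and for ChREBPβ at 11 mM by Akap2 (no filter).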
